A study of Homo sapiens with 16 samples.

Results

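The mRNAs described here code for the proteins of the human mitochondrial ribosome. They were taken as every row of the RNA-seq and Ribo-seq tables whose gene symbol is MRPL or MRPS, then a number and at most 1 letter from A to C. This rule gave 78 genes, the same 78 in both assays, of 23597 rows in the RNA-seq table and 19201 in the Ribo-seq table. The cells were WI-38, a line of human lung fibroblasts with a limited number of divisions, used young at passage 24 or senescent at passage 36. Either state was left as control or held for 2 h at 44 °C (the labels have lost the degree sign), and each of the 4 conditions gave 2 RNA-seq and 2 Ribo-seq libraries, 16 in all. All cells, controls included, had gone without serum for 24 h and been returned to full medium for 24 h, and the labels state no recovery after the heat shock. The labels name 1 cell line and give no separate cultures for the replicates, so p-values measure the spread between libraries, which may be technical. All 10 fibroblast markers had a median level of at least 1 TPM (RSEM's relative transcript abundance, a level scaled by gene length). That level was also reached by KRT8, KRT18 and KRT19 among 7 epithelial markers, by TEK among 5 endothelial markers and by CD68 among 5 leukocyte markers, while CDH5, CD3E, MS4A1, SFTPC and KRT5 had a median of 0 in both assays.

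Mitochondria keep a ribosome of their own, which translates the few respiratory chain proteins encoded in mitochondrial DNA. Its RNAs are made in the organelle, whereas its proteins come from nuclear genes, are translated by cytosolic ribosomes and are imported. The small subunit reads the mRNA, and the large subunit joins the amino acids and carries the exit tunnel. Ribo-seq counts the mRNA fragments that cytosolic ribosomes protect (footprints), so it reports how much these mRNAs are translated in the cytosol, not the activity of the mitochondrial ribosome. By current structures 26 of the genes code for small subunit proteins and 51 for large subunit proteins, MRPS18A and MRPS30 among the latter in spite of their names. MRPS36 belongs to neither and is now assigned to a dehydrogenase complex of the citric acid cycle. Of the 78, 46 have a bacterial counterpart.

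Total counts ran from 26434514 to 37126871 in RNA-seq and from 4581141 to 9104077 in Ribo-seq. The 78 genes took 0.297% to 0.380% of the RNA-seq counts and 0.391% to 0.449% of the Ribo-seq counts. All 78 passed the filter on low counts, the lowest single value being 100 counts in RNA-seq and 14 in Ribo-seq. The 4 heat shock genes HSPA1A, HSPA6, DNAJB1 and BAG3 rose in RNA in both young and senescent cells. The 2 young control footprint libraries were closer to each other than any other pair (chi-square over degrees of freedom 1.73, against 17.2 to 38.8 in the other footprint groups), so each footprint result was also computed with them summed as 1 sample. Changes are log2 fold changes ± SE from edgeR's quasi-likelihood test (n = 2 per group). They are thus changes against most other genes. A gene is called where p, adjusted over all genes tested by the Benjamini-Hochberg method, is under 0.05. Levels per library are CPM, a gene's counts relative to the total of its library, scaled by the trimmed mean of M values, which compare libraries for 1 gene and not genes with each other.

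MRPL18, a large subunit protein, was the member with the largest change on heat shock in both assays and both states. Its mRNA is also known for a shorter form of the protein, made under stress, that stays in the cytosol and acts on the cytosolic ribosome. The gene starts 210 bases from TCP1, a subunit of the chaperonin that folds actin and tubulin, and the genes run in opposite directions. The bases between them are shown because both genes start at its ends, with a CCAAT box in capitals (RefSeq, GRCh38.p14, chr6:159789603-159789811, plus strand, 5′ to 3′ towards MRPL18). Below it are the matches near the MRPL18 starts to a pair of heat shock element units (GAANNTTC or TTCNNGAA, in capitals). The first lies 14 bases after the upstream of its RefSeq starts (chr6:159789820-159789839) and the second 11 bases after the downstream one (chr6:159789872-159789891).
Between TCP1 and MRPL18: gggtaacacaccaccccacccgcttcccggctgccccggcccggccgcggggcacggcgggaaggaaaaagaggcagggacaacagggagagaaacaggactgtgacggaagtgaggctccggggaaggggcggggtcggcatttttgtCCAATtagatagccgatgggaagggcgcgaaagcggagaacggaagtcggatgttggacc
MRPL18 first pair: gaggttGAACCTTCgcctca
MRPL18 second pair: agtgccTTCTAGAAaaggtt

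Footprints on MRPL18 stood at 59.9 and 62.5 CPM in young controls and at 282 and 257 CPM after heat shock. In senescent cells they stood at 50.0 and 57.1 CPM in controls and at 227 and 111 CPM after heat shock. Both heat-shocked libraries were above all 4 controls in both states, and senescent heat shock replicate 2 was the lowest of the heat-shocked libraries. MRPL18 footprints rose by 2.14 ± 0.30 in young cells (adjusted p = 0.0148) and by 1.66 ± 0.31 in senescent cells (adjusted p = 0.0193). Over the 17 alternatives to each test the adjusted p ranged from 5.38e-09 to 0.188 in young cells, with 11 calls, and from 2.09e-05 to 0.102 in senescent cells, with 14 calls. The young call was lost when any 1 of its 4 libraries was left out (adjusted p = 0.0593 to 0.188), with the young controls summed as 1 sample (0.174) and in limma-trend on TPM (0.0544). The senescent call was lost without senescent control replicate 1 (0.102) or replicate 2 (0.0707) and in limma-trend (0.0658), and without senescent heat shock replicate 1 the rise was 1.02 (adjusted p = 0.0158).

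The RNA of MRPL18 stood at 55.2 and 47.7 CPM in young controls and at 221 and 144 CPM after heat shock. In senescent cells it stood at 55.3 and 42.4 CPM in controls and at 135 and 67.2 CPM after heat shock. Here too every heat-shocked library was above all controls. The change was 1.83 ± 0.35 in young cells (adjusted p = 0.0635) and 1.05 ± 0.35 in senescent cells (adjusted p = 0.416), so neither passed. With replicate number as a block both passed, at adjusted p = 0.00101 in young and 0.0216 in senescent cells. Over all 16 alternatives the adjusted p ranged from 6.29e-05 to 0.394 in young cells, with 5 calls, and from 0.0216 to 0.803 in senescent cells, with 1. Without senescent heat shock replicate 1 the senescent change was 0.45. Translational efficiency, the footprint change minus the RNA change, gave 0.31 ± 0.50 in young and 0.59 ± 0.50 in senescent cells for MRPL18 and was not called in either. The senescent response minus the young one was -0.78 ± 0.49 in RNA (adjusted p = 1) and -0.48 ± 0.43 in footprints (adjusted p = 0.851), so a difference between the states was not shown. TCP1, on the other side of the shared region, gave 0.72 ± 0.19 in RNA of young cells (adjusted p = 0.163, and 0.00995 with the block) and 0.27 ± 0.19 in senescent cells (adjusted p = 0.81), and its footprints gave 0.63 ± 0.21 (adjusted p = 0.207) and 0.55 ± 0.21 (adjusted p = 0.128).

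**Figure D1:**
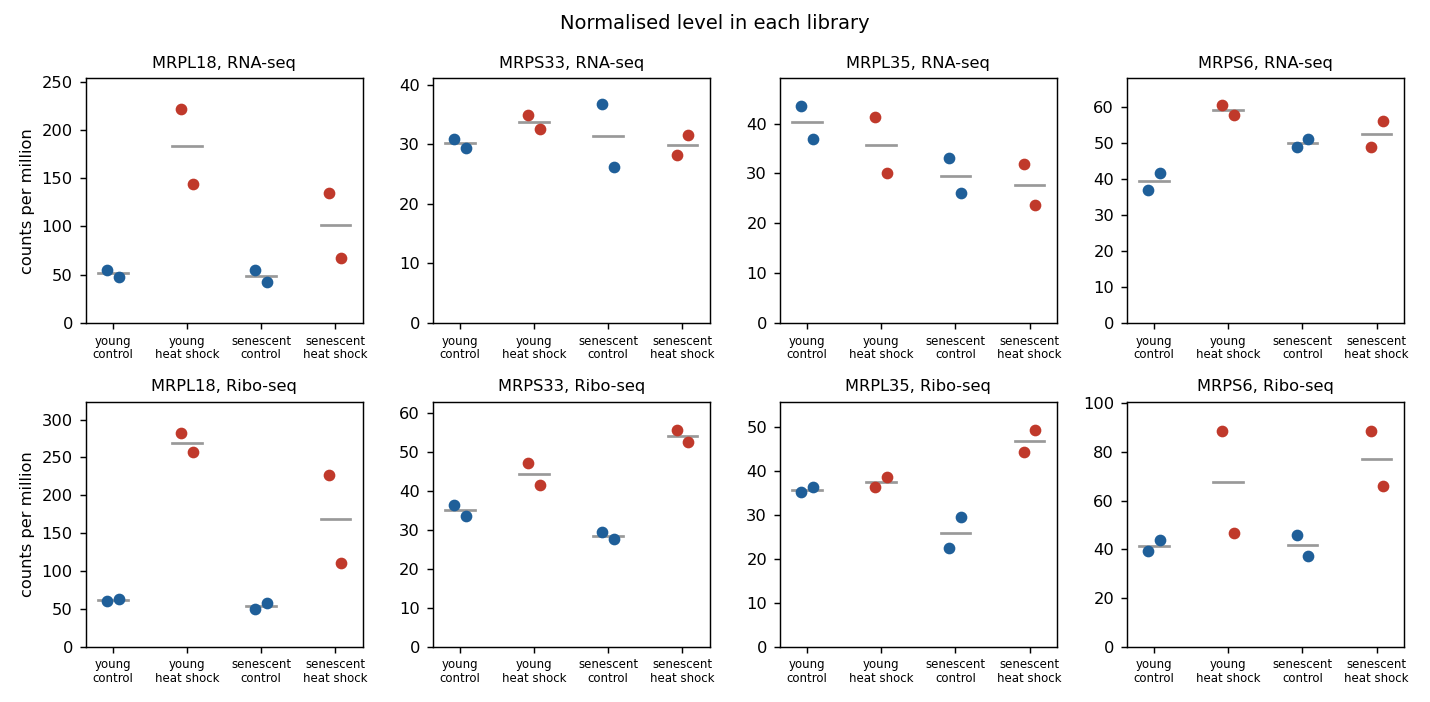
Scaled level (CPM, linear axes from 0) of 4 genes in each library, RNA-seq above and Ribo-seq below, with 1 point per library, control in blue, heat shock in red, and a bar at the mean of the 2 libraries. MRPL18 was higher after heat shock in every library of both assays, while MRPS33 and MRPL35 were higher in the senescent heat-shocked footprint libraries with overlapping RNA levels.

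In RNA no member passed edgeR's test on heat shock with the settings given above, and MRPL18 passed with some others. Of 78 members edgeR called 0 in young cells, where 1.14% of all 13177 genes tested were called, and 0 in senescent cells, where 0.577% were. At an unadjusted p under 0.05 there were 2 higher (2.56%, against 4.33% of all genes) and 1 lower (1.28%, against 5.78%) in young cells. In senescent cells there were 1 higher (1.28%, against 3.27%) and 2 lower (2.56%, against 5.02%). DESeq2 called 1, MRPL18, in young cells (1.28% of the members), where it called 1.27% of all genes higher. In senescent cells DESeq2 called 0, where it called 0.718% of all genes higher and 0.881% lower. By limma-trend 0 were called in both. In young cells MRPL18 also passed without a filter on low counts (adjusted p = 0.00259, where 1.02% of all genes were called higher). It also passed with a GC correction (adjusted p = 0.0314, where 1.36% were). Whether it passed also depended on senescent heat shock replicate 1, which enters that comparison through the filter, scaling, pooled spread and adjustment. The median change was 0.07 in young and -0.08 in senescent cells, against 0.01 and -0.01 over all genes. Scaling by library size alone shifted all genes to -0.27 and -0.23 and the members to -0.21 and -0.30, so no direction is given for the group. In bulk RNA, fewer cells of a type and less RNA per cell cannot be told apart.

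With the block, 3 members passed in young cells (8.77% of all genes did) and MRPL18 alone in senescent cells (6.28% of all genes). Beside MRPL18 these were MRPS6 and MRPL46. MRPS6, a small subunit protein with a bacterial counterpart, had RNA at 37.0 and 41.7 CPM in young controls and 60.6 and 57.9 CPM after heat shock, a change of 0.59 ± 0.19 (adjusted p = 0.27, and 0.0263 with the block). The groups did not overlap in young cells, and in senescent cells the change was 0.07 ± 0.19. MRPS6 shares exon sequence with SLC5A3, a myo-inositol transporter whose coding exon lies inside the MRPS6 gene, so the split of reads between them is uncertain. SLC5A3 RNA gave 2.34 ± 0.61 in young cells (adjusted p = 0.189, and 0.00558 with the block). MRPL46, a large subunit protein, had RNA at 21.5 and 21.4 CPM in young controls and 12.1 and 14.3 CPM after heat shock, a change of -0.70 ± 0.23 (adjusted p = 0.294, and 0.0441 with the block). In senescent cells MRPL46 gave -0.59 ± 0.23 (adjusted p = 0.517), with controls at 23.5 and 18.9 CPM and heat-shocked libraries at 13.0 and 15.2 CPM. Both heat-shocked libraries were below both controls in either state. Footprints on MRPL46 gave -0.44 ± 0.25 in young and 0.06 ± 0.25 in senescent cells. Over the 16 alternatives in RNA of young cells the adjusted p ranged from 0.0263 to 0.931 for MRPS6 and from 0.0441 to 0.909 for MRPL46, and the block was the only one that called either.

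The other members with the most extreme RNA values were not called, with or without the block. MRPL48 and MRPL52, both large subunit proteins, gave 0.36 ± 0.23 and 0.36 ± 0.23 in young cells, and MRPL54 and MRPL4 gave 0.31 ± 0.22 and 0.30 ± 0.19 in senescent cells. At the other end, MRPS31 gave -0.79 ± 0.45 in young and -0.89 ± 0.46 in senescent cells, and its libraries varied widely, from 12.4 and 7.7 CPM in young controls to 5.2 and 4.2 CPM in senescent heat-shocked cells. MRPL14 gave -0.40 ± 0.20 in young cells and MRPL16 gave -0.67 ± 0.25 in senescent cells. In young cells 17 members were higher in both heat-shocked libraries than in both controls, where 19.5% of all genes were, and 16 were lower, where 20.7% of all genes were. In senescent cells the counts were 14 higher (14.7% of all genes) and 14 lower (16.4% of all genes).

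In footprints of young cells MRPL18 was the only member called, 1.28% of the 78 against 0.771% of all 11288 genes called higher. The median over the 78 was 0.15, with 58 above 0, against -0.01 over all genes. In 32 members both heat-shocked libraries were above both controls (41%, against 27.4% of all genes), and in 8 both were below (10.3%, against 31.6%). The side of 0 depended on the scaling: by library size alone the median was -0.13 with all genes at -0.28, and in limma-trend on TPM it was -0.04 with all genes at -0.19. Without young heat shock replicate 2 the median was 0.04. After MRPL18 the highest values were 0.70 ± 0.31 for MRPS6 (adjusted p = 0.315) and 0.70 ± 0.54 for MRPL55 (adjusted p = 0.573). The lowest were -0.57 ± 0.31 for MRPL16, -0.51 ± 0.33 for MRPL58, a peptidyl-tRNA hydrolase built into the large subunit, and -0.44 ± 0.25 for MRPL46.

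In footprints of senescent cells MRPL18, MRPS33 and MRPL35 rose on heat shock and no member fell. These are 3 of the 78 members, 3.85% against 3.12% of all genes called higher, a share near that of all genes. DESeq2 called 6 higher, where it called 4.16% of all genes higher, and limma-trend 0. At an unadjusted p under 0.05 there were 22 higher (28.2%, against 12.9% of all genes) and 0 lower (15.8% of all genes). The median was 0.41, with 70 of 78 above 0, against 0.03 over all genes. In 39 members both heat-shocked libraries were above both controls (50%, against 26.8% of all genes) and in 2 both were below (2.56%, against 27%). By library size alone the median was 0.13 with all genes at -0.25, and in limma-trend it was 0.09 with all genes at -0.24. The count of calls rested on single libraries: it was 1 without young control replicate 1 or 2, senescent control replicate 2 or senescent heat shock replicate 2, 0 without senescent control replicate 1, and 10 without senescent heat shock replicate 1. It was 1 with the young controls summed. For these fits the share of all genes called is not given here, so the counts show only how stable the calls were. The median was 0.22 without senescent heat shock replicate 2 and 0.56 without replicate 1.

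MRPS33, a small subunit protein without a bacterial counterpart, had footprints at 29.4 and 27.7 CPM in senescent controls and at 55.7 and 52.4 CPM after heat shock. It rose by 0.92 ± 0.20 (adjusted p = 0.0272, and 0.00936 to 0.145 over 17 alternatives, 8 of which called it). In young cells MRPS33 footprints stood at 36.5 and 33.5 CPM in controls and 47.1 and 41.5 CPM after heat shock, a change of 0.34 ± 0.19 that was not called. Its RNA did not separate the groups in senescent cells, with controls at 36.8 and 26.2 CPM and heat-shocked libraries at 28.2 and 31.6 CPM. The MRPS33 call was lost without either young control, either senescent control or senescent heat shock replicate 2, at adjusted p = 0.0627 to 0.0958.

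MRPL35, a large subunit protein with a bacterial counterpart, had footprints at 22.5 and 29.4 CPM in senescent controls and at 44.3 and 49.3 CPM after heat shock. It rose by 0.85 ± 0.21 (adjusted p = 0.0463, and 0.0286 to 0.186 over 17 alternatives, 5 of which called it). The young libraries lay close together, at 35.1 and 36.4 CPM in controls and 36.4 and 38.7 CPM after heat shock, a change of 0.07 ± 0.21. In senescent cells the RNA overlapped, at 33.1 and 26.1 CPM in controls and 31.8 and 23.7 CPM after heat shock. The MRPL35 call was lost when any library other than senescent heat shock replicate 1 was left out, at adjusted p = 0.0655 to 0.172. For the response of senescent minus young cells MRPL35 gave 0.78 ± 0.30 and MRPS33 gave 0.58 ± 0.28, both at adjusted p = 0.834, so a difference between the states was not shown for either.

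Chosen after their values were seen, those just outside the call were MRPL1 (0.77 ± 0.22, adjusted p = 0.0625), a protein of the stalk at the tRNA exit, MRPL47 (0.71 ± 0.21, adjusted p = 0.0676), which lies beside the exit tunnel, MRPS21 (0.73 ± 0.21, adjusted p = 0.0693), MRPL52 (0.62 ± 0.18, adjusted p = 0.0693) and MRPL53 (0.70 ± 0.21, adjusted p = 0.0768). Footprints on MRPL47 went from 65.2 and 50.3 CPM in senescent controls to 91.9 and 96.6 CPM after heat shock, with no overlap. An exon of MRPL47 overlaps an exon of ACTL6A on the other strand. Such overlaps were common: 34 of the 78 members had an exon overlapping another gene on either strand, and 27 a protein-coding gene. MRPL19, MRPL34, MRPL37, MRPL46, MRPL51 and MRPS2 were among the latter. MRPL55 had the second largest value, 1.30 ± 0.55, and was not called (adjusted p = 0.159): its senescent controls differed from each other, at 2.92 and 12.7 CPM, and its heat-shocked libraries stood at 18.6 and 20.6 CPM. MRPS6 gave 0.90 ± 0.31 (adjusted p = 0.104). The lowest values were -0.42 ± 0.36 for MRPL34, -0.40 ± 0.23 for MRPL37 and -0.23 ± 0.23 for MRPS2.

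**Figure D2:**
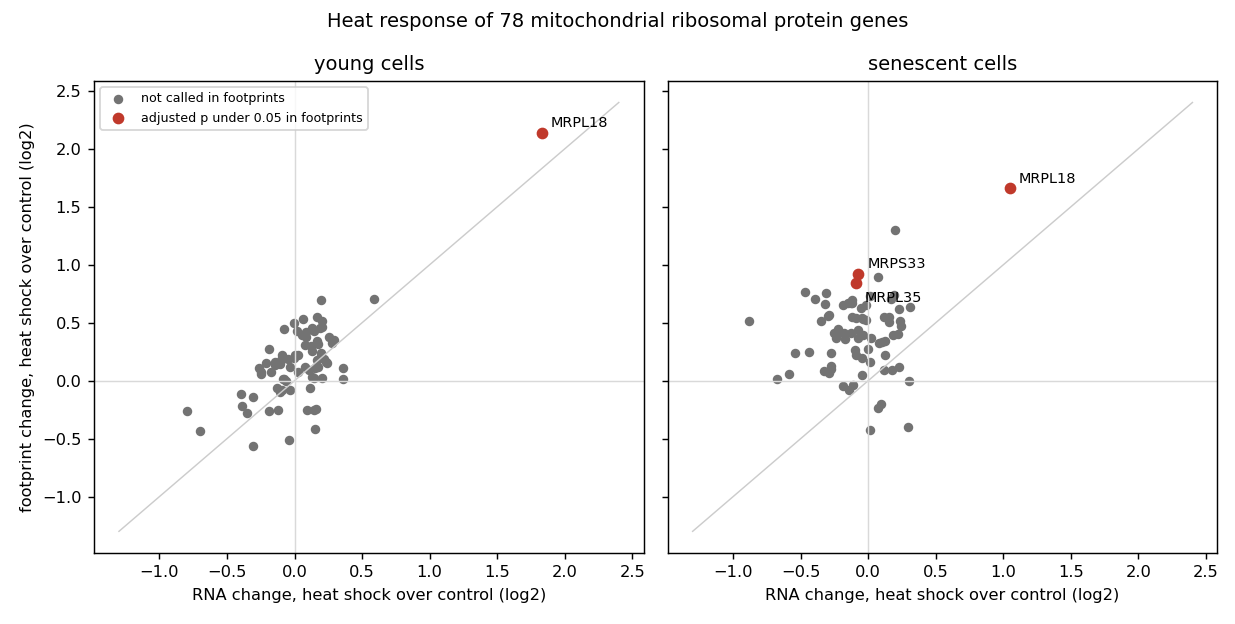
Heat response of each of the 78 genes in young (left) and senescent cells (right), RNA change on the x axis and footprint change on the y axis (log2, heat shock over control), with the line of equal change and genes called in footprints in red. MRPL18 had the highest value on both axes. In senescent cells 70 of 78 points were above 0 in footprints and 29 were above 0 in RNA.

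No test compared the 2 subunits. In senescent footprints the median was 0.43 over the 26 small subunit genes (22 above 0, 1 called) and 0.40 over the 51 large subunit genes (47 above 0, 2 called). For the 46 genes with a bacterial counterpart it was 0.41 and for the other 32 it was 0.39. In young cells the medians were 0.12 for the small and 0.17 for the large subunit. In senescent cells both heat-shocked libraries were above both controls in 17 of 26 small subunit genes (65.4%) and 22 of 51 large subunit genes (43.1%). Of all genes 26.8% were. In young cells this held for 8 (30.8%) and 24 (47.1%), against 27.4% of all genes, so the small subunit was near that share. The paralogues MRPS18A, MRPS18B and MRPS18C, which sit in different places of the ribosome, gave 0.65 ± 0.29, 0.45 ± 0.31 and 0.51 ± 0.24 in senescent footprints, and none was called. The stalk proteins MRPL11 and MRPL12, which contact translation factors, gave 0.47 ± 0.26 and 0.51 ± 0.21. MRPS12, a protein of the decoding centre, gave 0.09 ± 0.48, and its libraries after heat shock lay far apart at 10.0 and 27.0 CPM. MRPL13 gave 0.67 ± 0.24, MRPL41 0.52 ± 0.27, MRPS30 0.24 ± 0.21 and MRPL36 0.13 ± 0.31. MRPS36, outside the ribosome, gave 0.66 ± 0.38.

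The cytosolic ribosomal proteins and the nuclear genes for respiratory chain subunits were set beside the mitochondrial ones. In senescent footprints 10 of 82 cytosolic ribosomal protein genes were called lower, where 5.24% of all genes were, and 0 higher, with a median of -0.51. In the same comparison 2 of 78 respiratory chain genes were called higher, where 3.12% of all genes were, with a median of 0.54. In young footprints the medians were -0.20 and 0.31, with no call by edgeR in either list. Unadjusted p was under 0.05 for 13 cytosolic genes lower and 1 higher, and for 8 respiratory chain genes higher and 1 lower, where 7.77% of all genes were higher and 8.25% lower. In both states the footprint median of the cytosolic list was below that of all genes in each of 5 fits. The medians of the respiratory chain and mitochondrial lists were above it. A change of scaling moves all genes together, so these fits could hardly alter that order and add no support. Cytosolic ribosomal protein genes have many pseudogene copies, so their counts are less certain. In each library the median deviation of the mitochondrial list from the gene means was -0.18 and -0.16 in senescent control footprints and 0.12 and 0.35 after heat shock. The cytosolic list stood at 0.19 and 0.16 in those controls and at -0.22 and -0.53 after heat shock. In RNA the cytosolic list had a median change of 0.24 in young and 0.26 in senescent cells, and by library size alone -0.04 and 0.02 with all genes at -0.27 and -0.23. No test compared one list with another.

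**Figure D3:**
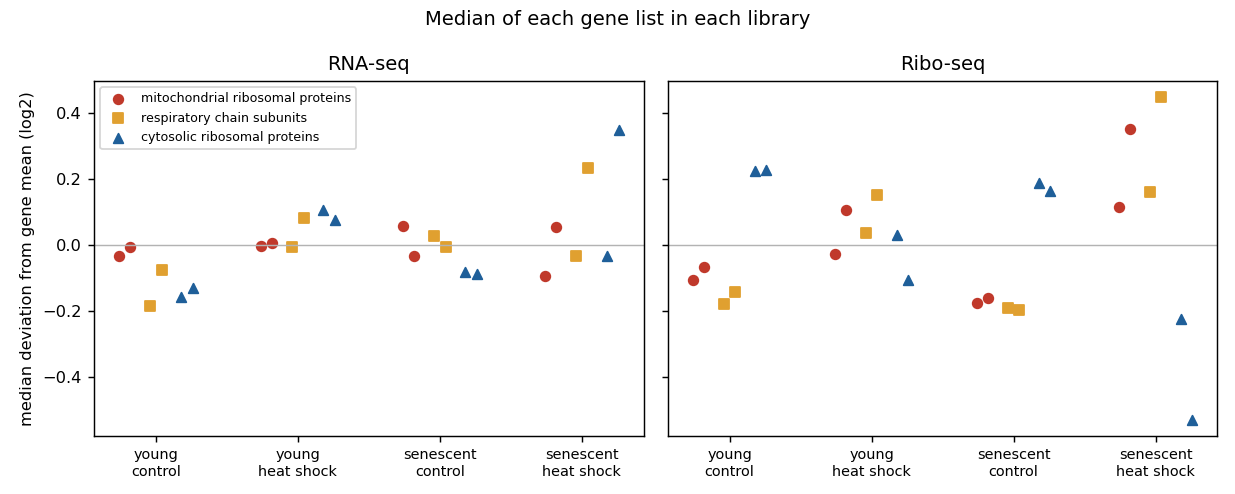
Median over each gene list of the log2 deviation of a gene from its mean over the 8 libraries of the assay, 1 point per library, RNA-seq left and Ribo-seq right. In footprints the mitochondrial ribosomal proteins (circles) and respiratory chain subunits (squares) were higher in both heat-shocked than in both control libraries of either state, and the cytosolic ribosomal proteins (triangles) lower.

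Without the block, translational efficiency was not called for any member in the fit of all 16 libraries. Efficiency was not recomputed with the young control footprint libraries summed. In young cells edgeR called 0 of 78 (0.0896% of all 11166 genes) and in senescent cells 0 (2.43% of all genes), and limma voom with sample weights called 0 in both. At an unadjusted p under 0.05 there were 0 in young cells (4.11% of all genes). In senescent cells there were 13 higher (16.7%, against 5.96% of all genes) and 1 lower (1.28%, against 10.7%). With the replicate block 6 members were called higher in senescent cells, where 2.88% of all genes were: MRPL35, MRPS33, MRPL14, MRPL47, MRPL1 and MRPS31. The median was 0.15 in young cells and 0.50 in senescent cells, where 70 of 78 values were above 0, against 0.02 and 0.05 over all genes. Without senescent control RNA replicate 2 there were 2 calls in senescent cells, and without senescent control footprint replicate 2 there was 1. The shares of all genes called in those fits are not given here. The largest senescent values were 1.38 ± 0.55 for MRPS31, 1.21 ± 0.50 for MRPL1 and 1.09 ± 0.61 for MRPL55. The smallest p-values were for MRPS33 (0.98 ± 0.30, adjusted p = 0.12) and MRPL47 (1.08 ± 0.35, adjusted p = 0.136). The lowest were -0.71 ± 0.28 for MRPL37, -0.47 ± 0.45 for MRPL34 and -0.33 ± 0.30 for MRPL4. In young cells the values ran from -0.57 ± 0.62 for MRPL54, -0.48 ± 0.40 for MRPL58 and -0.41 ± 0.48 for MRPS24 to 0.50 ± 0.60 for MRPL55, 0.52 ± 0.35 for MRPS18A and 0.53 ± 0.55 for MRPS31.

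The response of senescent minus that of young cells was not called for any member by edgeR in RNA (0% of all genes called), footprints (0%) or efficiency (0.00896%). At an unadjusted p under 0.05 there were 0 members in RNA, where 0.25% of all genes were higher and 0.653% lower. In footprints 1 was higher (1.28%, against 1.85% of all genes) and 0 lower (against 3.06%). In efficiency there were 0, where 0.699% of all genes were higher and 1.59% lower. DESeq2, limma-trend and, for efficiency, voom also called 0. The median difference was -0.11 in RNA, 0.30 in footprints and 0.39 in efficiency, with 58 of 78 above 0 in footprints and 66 in efficiency. Without senescent heat shock replicate 2 the footprint median was 0.08. The largest footprint differences were 1.05 ± 0.75 for MRPL54 and 1.04 ± 0.47 for MRPL58, both at adjusted p = 0.834.

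No member was called between passages. Between senescent and young controls edgeR called 0 of 78 in RNA (0.0379% of all genes), 0 in footprints (0%) and 0 in efficiency (0.00896%). At an unadjusted p under 0.05 there were 0 in RNA, where 3.73% of all genes were higher and 3.48% lower. In efficiency there were 0, where 0.278% of all genes were higher and 0.51% lower. In footprints 1 was higher (1.28%, against 4.43% of all genes) and 0 lower (against 3.41%). That member was MRPL34, with a difference of 1.02 ± 0.36 (adjusted p = 0.488). It stood at 7.52 and 7.67 CPM in young and 17.5 and 13.3 CPM in senescent controls. In RNA 15 members were higher in both senescent libraries (17.8% of all genes) and 6 lower (18.1%), and in footprints 8 were higher (24.8%) and 21 lower (26.7%). The median was 0.04 in RNA, -0.09 in footprints and -0.10 in efficiency. DESeq2, limma-trend and voom called 0 as well.

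With both states heat-shocked, senescent against young, edgeR again called 0 in RNA (0% of all genes), 0 in footprints (0.00886%) and 0 in efficiency (0%). With the block, where 13.7% of all genes were called in RNA, 3 members passed: MRPS2, a small subunit protein (0.55 ± 0.22, adjusted p = 0.403, and 0.031 with the block), was higher, and MRPS30 (-0.69 ± 0.27, adjusted p = 0.403, and 0.0265 with the block) and MRPL18 (-0.86 ± 0.35, adjusted p = 0.412, and 0.0217 with the block) were lower. Over the alternatives the adjusted p of all 3 reached 1. MRPS2 RNA stood at 25.05 and 29.1 CPM in young and 35.0 and 44.1 CPM in senescent heat-shocked cells, and MRPS30 RNA at 17.1 and 13.7 CPM against 10.6 and 8.5 CPM, neither with overlap. At an unadjusted p under 0.05 there were 1 higher in RNA (1.28%, against 6.31% of all genes) and 2 lower (2.56%, against 5.23%). In footprints 3 were higher (3.85%, against 5.78%) and 0 lower (against 7.18%). DESeq2, limma-trend and voom called 0. Without senescent heat shock replicate 1 there were 2 footprint calls. The share of all genes called in that fit is not given here. In RNA 20 members were higher in both senescent libraries (21.7% of all genes) and 25 lower (21.3%), and in footprints 24 were higher (20.4%) and 3 lower (20.1%). The footprint median was 0.20, and 0.02 without senescent heat shock replicate 2.

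Genes that build or serve the mitochondrial ribosome were counted the same way. Of 24 assembly factors 1 was called in RNA in each heat comparison, where 1.14% of all genes were in young and 0.577% in senescent cells. With the block 3 were called in each, where 8.77% and 6.28% of all genes were. FASTKD2, which binds mitochondrial RNA, was among them in both. In senescent footprints 1 was called higher (3.12% of all genes) and 1 lower (5.24%). DDX28, an RNA helicase of large subunit assembly, fell by 1.94 in RNA of young cells (SE 0.34, adjusted p = 0.0479) and by 2.46 in senescent cells (SE 0.35, adjusted p = 0.0302), and its footprints fell by 2.10 in senescent cells (SE 0.44, adjusted p = 0.0257). MTERF3, a mitochondrial RNA-binding protein needed for ribosome assembly, rose by 0.98 ± 0.23 in senescent footprints (adjusted p = 0.0392). Without the block none of 14 translation factors was called by edgeR in RNA or footprints. At an unadjusted p under 0.05 there was 1 lower in RNA of either state, against 5.78% of all genes in young and 5.02% in senescent cells. In footprints 3 were higher in either state, against 7.77% and 12.9% of all genes. With the block MTFMT, which formylates the initiator tRNA, passed in RNA of young cells (-0.71 ± 0.24, adjusted p = 0.321, and 0.0494 with the block). GFM1, the elongation factor that moves the ribosome along, gave 0.76 ± 0.23 in senescent footprints (adjusted p = 0.08, and called with the block). TUFM, which brings aminoacyl-tRNA, gave 0.41 ± 0.20 there. Of 14 genes for mitochondrial transcription and its nuclear regulators in RNA and 13 in footprints, 1 was called, PPRC1, a coactivator of mitochondrial genes, whose footprints fell by 1.07 in senescent cells (SE 0.20, adjusted p = 0.0187). PPRC1 RNA gave -1.17 ± 0.26 in young cells (adjusted p = 0.109, and 0.0196 with the block) and -1.20 ± 0.26 in senescent cells (adjusted p = 0.154, and 0.025 with the block). TFAM, which packs and starts transcription of mitochondrial DNA, gave -0.06 ± 0.41 in RNA of young and -0.28 ± 0.41 in RNA of senescent cells. The 5 ribosomal proteins with other symbols had a senescent footprint median of 0.54 with all 5 above 0, where 51.7% of all genes were. None was called by edgeR, and 3 were higher at an unadjusted p under 0.05, where 12.9% of all genes were. Among the 5, DAP3, a GTP-binding protein of the small subunit, gave 0.34 ± 0.21.

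Most of these proteins are present once per ribosome, yet their mRNAs were not at equal levels. Mean RNA levels over 8 libraries ran from 10.2 TPM for MRPL19, 11.2 for MRPS31 and 13.0 for MRPL22 to 193 for MRPL18, 225 for MRPL20 and 387 for MRPL51, with a median of 57.5. MRPL18 stood this high through the heat-shocked libraries: its RNA averaged 121 TPM in young and 104 in senescent controls, against 358 and 189 after heat shock, and MRPS24 was above it in both controls at 196 and 189 TPM. Mean footprint levels ran from 18.3 TPM for MRPS31, 26.0 for MRPL46 and 27.1 for MRPS30 to 399 for MRPL51, 425 for MRPS21 and 457 for MRPL52, with a median of 81.5. The SD of log2(TPM + 1) between members was 0.95 to 1.21 over the RNA-seq libraries and 0.87 to 1.08 over the Ribo-seq libraries. For example, MRPL51 RNA ran from 293 to 463 TPM and MRPL52 footprints from 315 to 632 TPM over all libraries. MRPS18C footprints averaged 159 TPM ± 24.0 (SD, n = 8), against 71.3 ± 13.1 for MRPS18B and 52.0 ± 10.3 for MRPS18A, so the first stood apart from its paralogues and the ranges of the other two overlapped. Their RNA levels were 46.4 ± 10.6, 62.3 ± 11.6 and 51.6 ± 6.35 TPM and overlapped. Across the 78 genes, RNA and footprint levels had a Spearman rho of 0.62 in young controls, 0.61 in young heat-shocked, 0.56 in senescent control and 0.52 in senescent heat-shocked cells, given as a description since genes share libraries.

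**Figure D4:**
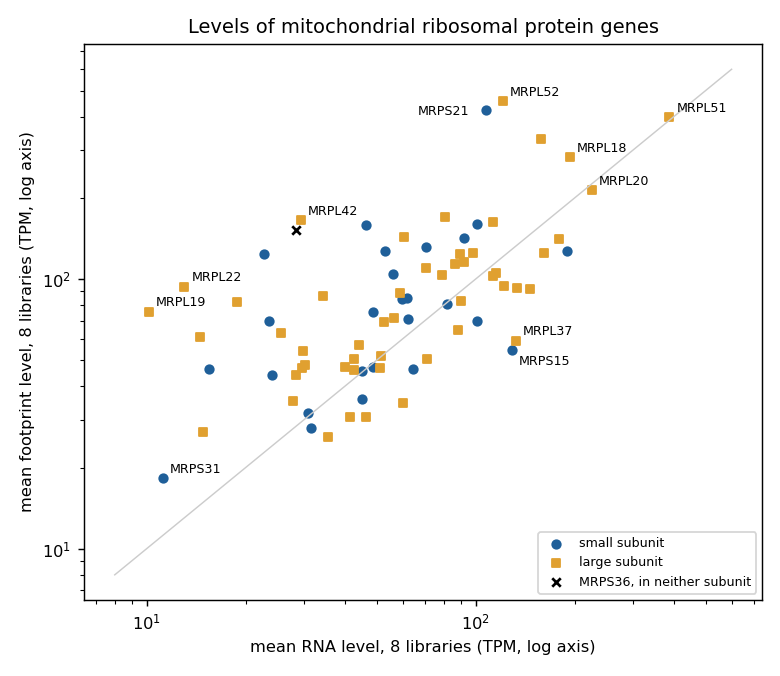
Mean RNA level against mean footprint level of each gene (TPM, both axes logarithmic, 8 libraries per assay), by subunit, with the line of equal level. RNA levels spread from 10.2 to 387 TPM and footprint levels from 18.3 to 457 TPM, with MRPL19, MRPL22 and MRPL42 far above the line and MRPS15 and MRPL37 below it.

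The ratio of footprint to RNA level (log2 of TPM + 1 in each) had a median over the members of 0.22 in young controls, 0.44 in young heat-shocked, 0.20 in senescent control and 0.66 in senescent heat-shocked cells. Its order among genes had a rho of 0.918 between young control and young heat shock and 0.874 between young control and senescent heat shock. The highest mean ratios were 2.80 for MRPL19, 2.76 for MRPL22 and 2.46 for MRPL42, and the lowest were -1.24 for MRPS15, -1.18 for MRPL37 and -0.82 for MRPL55. The lengths behind TPM limit this order. From counts and TPM together, the length used for footprints followed the coding length of the gene (rho 0.968) and that used for RNA followed the length of the transcript (rho 0.646), and the ratio was higher with a higher quotient of these lengths (rho 0.625). By CPM, without lengths, MRPL22 ranked 4 of 78 by ratio, MRPL19 18 and MRPL42 29, and the rho between the 2 orders was 0.464. Summed over the 78 genes, the share of all TPM in RNA was 0.631% and 0.614% in young control, 0.587% and 0.548% in young heat-shocked, 0.630% and 0.572% in senescent control and 0.552% and 0.498% in senescent heat-shocked libraries. In footprints these shares were 0.777% and 0.799%, 0.805% and 0.862%, 0.749% and 0.727%, and 0.836% and 0.830%. In RNA both heat-shocked libraries were below both controls in either state. Shares are not scaled, and by library size alone the RNA median over all genes fell too. The lower RNA shares thus give no direction for these mRNAs. In footprints both heat-shocked libraries were above both controls in either state. In young footprints this rested on MRPL18: without it the shares were 0.765% and 0.787% in controls and 0.744% and 0.804% after heat shock, and they overlapped. In senescent footprints without it they were 0.739% and 0.716% in controls and 0.792% and 0.813% after heat shock, with no overlap. As shares of counts, with MRPL18, young footprints were 0.424% and 0.439% in controls and 0.393% and 0.437% after heat shock.

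Promoter windows of 300 bases, 250 of them before the start, were found in RefSeq (GRCh38.p14) for 69 of the 78 genes, 85 windows in all. The ETS motif CCGGAAG, bound by the GABP factor among others, stood on either strand in 38.8% of these windows, 30 genes, and in 10.3% of all 35116 windows. The long form of the YY1 motif stood in 11.8% of windows, 10 genes, and in 0.849% of all windows. Within the 250 bases before the start, the YY1 motif stood in only 1.18% of member windows, against 0.248% of all windows. The ETS motif stood there in 31.8%, against 8.52%. Over whole windows the palindromic motif of NRF1, a regulator of mitochondrial genes, stood in 1.18% against 1.24%. The CCAAT box stood in 32.9% against 34.6%, and TATAAA in 3.53% against 11.5%. The pair of heat shock element units stood in 15.3% against 13.5%, in 12 genes, MRPL18 and MRPL1 among them. The form with 3 units, alternating GAA and TTC with NN between them, which contains the pair and can overlap an ETS motif, stood in 2.35% against 0.49%. The 2 genes that hold it are shown beside MRPL18, which has only the pair in its windows, with the 3 units in capitals (MRPL48 at chr11:73787801-73787825, plus strand, 67 bases before the start; MRPL51 at chr12:6493438-6493462, minus strand, 194 bases before the start).
MRPL48 site: atttcaGAAGCTTCCGGAActaaaa
MRPL51 site: aagggtGAATTTTCTTGAAatctca

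Neither gene was called on heat shock. MRPL48 gave 0.36 ± 0.23 in RNA and 0.01 ± 0.31 in footprints of young cells, and 0.18 ± 0.23 and 0.39 ± 0.32 in senescent cells. MRPL51 gave 0.16 ± 0.21 in RNA and 0.55 ± 0.23 in footprints of young cells, and -0.17 ± 0.21 and 0.36 ± 0.23 in senescent cells. Neighbours were searched only for the 69 genes with a window. Within 1000 bases, 26 of these 69 had a neighbour that starts in the opposite direction. In 1 case both genes were members, MRPL46 and MRPS11, 320 bases apart. These matches describe letters in a window, and binding was not measured.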

How the data were processed

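RNA-seq and Ribo-seq libraries came from WI-38 fibroblasts, young or senescent, heat-shocked or not, with 2 per group and assay. The authors deposited RSEM expected counts and TPM per gene, both named in the file headers or names. STAR, RSEM, Bowtie2 and the build hg19 are listed per the submitters' processing notes, with no versions, roles or annotation stated there. The deposited expected counts are whole numbers and were used as such. Every sample column was used.

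Counts were tested with edgeR 4.0.16 in R 4.3.3 (trimmed mean of M values, filterByExpr, quasi-likelihood test) over the 8 libraries of an assay, or all 16 for efficiency, with Benjamini-Hochberg adjustment over all genes tested. Residual degrees of freedom were 4 within an assay and 8 over both. Deposited TPM served for levels, with a pseudocount of 1 in logs and ratios. Alternatives were DESeq2 1.42.0, limma 3.58.1 (trend, voom), other scalings and filters, a GC correction, the replicate block and leaving out each library. The code was tested on simulated data. Same-numbered RNA libraries deviated together (r = 0.481 to 0.658 over all 6 pairs of groups), so the block is printed beside RNA results that it changes. In footprints r was -0.038 to -0.0281 for the pairs of groups with young controls. It was 0.245 to 0.329 for the other pairs, which thus also deviated together, but less than in RNA. These values are over all genes. Over the members alone r was 0.293 to 0.574 for those other footprint pairs, against 0.584 to 0.889 in RNA. For the footprint pairs with young controls it was -0.245 to -0.085. Footprint counts with the block are given in the closing section. The labels do not state what a replicate number stands for.

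Named genes were those called (up to 10 per comparison), the 3 highest and 3 lowest per heat comparison, the extremes of level and ratio, and a panel of 11. The members and lists were chosen with earlier results of these data known. Exon overlaps came from GENCODE 29 and sequences from RefSeq.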

Additional observations from a re-analysis of the deposited data

How the results depend on the processing

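Of the 15 counts of called members (5 comparisons in RNA, footprints and efficiency), 10 stayed at 0 whichever library was left out. Leaving out 1 library gave 0 to 1 for heat shock in RNA of young cells, 0 to 1 in footprints of young cells, 0 to 10 in footprints of senescent cells, 0 to 2 in efficiency of senescent cells, and 0 to 2 for senescent against young heat-shocked footprints. In RNA of young cells the count was 3 with the replicate block (8.77% of all genes called), against 0. It was 1 without a filter on low counts, with the GC correction or in DESeq2 (1.02%, 1.36% and 1.27% of all genes called higher). With the block the count was 1 in RNA of senescent cells (6.28% of all genes called), against 0. For senescent against young heat-shocked RNA the block gave 3 (13.7%), against 0. In footprints of young cells it was 0 in limma-trend and with the young controls summed, against 1. In footprints of senescent cells it was 7 with the block (in a fit that called 5.98% of all genes higher) and 6 in DESeq2 (4.16% of all genes), 1 with library size only, with only the 4 libraries compared or with the young controls summed, and 0 in limma-trend, against 3. In efficiency of senescent cells the block gave 6 calls, all higher, where 2.88% of all genes were called higher, against 0. The block changed no other count of called members. It also called GFM1 in senescent footprints (adjusted p = 0.047). For fits without 1 library the share of all genes called is not given, so their counts show only how stable the calls were. No called value changed sign. With 2 libraries per group and 14 counts at the lowest, footprints limit what could be called for low members.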
